A study of Mus musculus with 18 samples.

Results

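A set of 9 genes of both families was described here, out of 22852 gene rows in each count file: the kinase genes Jak2, Jak3 and Tyk2 and the STAT genes Stat2, Stat3, Stat4, Stat5a, Stat5b and Stat6. They were taken by name, with earlier results of these data known. Stat5a was chosen by its log2 fold change (log2FC) between LPS-tolerant and LPS-stimulated macrophages in these same libraries. Values of that comparison are therefore given as a description. Other members of both families were not analysed here. All 9 genes passed the filter on low counts, which kept 11305 genes.

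The Janus kinases and STAT factors carry signals from cytokine receptors to the nucleus. A cytokine brings its receptor chains together, the Janus kinases bound to those chains phosphorylate the receptor, and STAT proteins dock there, are phosphorylated in turn and enter the nucleus as dimers that bind DNA. The SOCS proteins and CIS, which are made from target genes of the STATs, act back on the receptors and kinases. In macrophages, STAT3 is known for mediating the effect of IL-10, STAT6 that of IL-4 and IL-13, STAT5 that of GM-CSF, and STAT2 that of type I interferon.

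The counts came from bone marrow-derived macrophages (BMDMs) of female C57BL/6 mice, grown for 7 days in medium with 20% L929-conditioned medium, a source of the growth factor M-CSF, in 6 groups with 3 replicates each. Unstimulated BMDMs received no LPS. Salmonella LPS at 100 ng/ml was given for 24 h to LPS-primed BMDMs. LPS-tolerant BMDMs had this dose too, and after a change of medium a low one of 10 ng/ml over another 3 h. A further pair of groups had carboplatin, a platinum compound that damages DNA, at 25 µM with the priming dose. The study's methods place it 1 h before LPS, whereas the treatment text of the labels names LPS first. LPS-stimulated BMDMs were given LPS at 10 ng/ml once, for 3 h. The labels do not state that time, which comes from the study's treatment scheme. The labels do not say that replicates came from separate mice, so the p-values measure the spread between these samples.

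Between 6869667 and 14708099 read pairs per library fell on genes, with a median of 8986463. All 10 macrophage markers examined were detected in every group. Markers of T and NK cells (Cd247, Lck and Cd2 above all) summed to at most 10.98 CPM, that is, counts scaled by library size. Those of dendritic cells summed to at most 2.08 CPM, those of mast cells and basophils to at most 1.33 CPM and those of stromal cells (Pdgfrb and Dcn) to at most 8.98 CPM. The B cell list reached 201 CPM in unstimulated BMDMs, nearly all of it Ighm with up to 1697 read pairs, beside Cd79b with up to 17, and at most 1.34 CPM in primed and tolerant BMDMs. The neutrophil list reached 279 CPM in LPS-primed BMDMs with carboplatin, through Mmp8. The part of these other cells in the results was not tested. Fewer cells of a type and less RNA per cell cannot be told apart in such bulk samples. Replicate 1 of every group stood apart: 0.103% to 0.175% of its read pairs were ambiguous between genes, against 0.231% to 0.286% in replicates 2 and 3.

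In GRCm39 with the GENCODE vM39 annotation, 3 of the genes lie together on chromosome 11, over 158.895 kb. Stat5b (100671556 to 100741589, minus strand) and Stat5a (100750177 to 100776065, plus strand) are transcribed away from each other from starts 8594 bases apart, and Stat3 (100775924 to 100830450, minus strand) shares 142 bases with the 3′ end of Stat5a. Jak2 lies on chromosome 19 (29228677 to 29290505, plus strand) with 24 exons in its canonical transcript. Stat2 (128106352 to 128128735) and Stat6 (127477821 to 127496862) are both on the plus strand of chromosome 10. Stat4 is on chromosome 1, Jak3 on chromosome 8 and Tyk2 on chromosome 9. The coding sequences of Stat5a and Stat5b were 88.8% identical, and 4.59% of 150-base windows of the Stat5a transcript also occur in Stat5b. Read pairs that fit both genes equally can stand in the rows for non-unique or ambiguous pairs, which were left out. The counts of both genes may then be too low. The same holds for pairs in the stretch that Jak3 shares with Insl3 on the same strand. The strand setting of the counting is not given in the sources used here. Whether pairs in the stretch that Stat5a and Stat3 share were counted for a gene or left out as ambiguous is therefore unknown.

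The 250 bases before the canonical start of Jak2, of Stat5a and of Stat2 are shown on the gene's strand, because Jak2 and Stat5a had the largest log2FC after LPS and the target genes of STAT2 and IRF9 are set beside Stat2. Capitals mark a motif: a GAS element (TTCNNNGAA, bound by STAT dimers) in Jak2 at chr19:29228427-29228676, and an ISRE (TTTC, any 2 bases, TTTC, bound by the complex of STAT2 with IRF9) in Stat2 at chr10:128106102-128106351. The Stat5a window is chr11:100749927-100750176.
Jak2: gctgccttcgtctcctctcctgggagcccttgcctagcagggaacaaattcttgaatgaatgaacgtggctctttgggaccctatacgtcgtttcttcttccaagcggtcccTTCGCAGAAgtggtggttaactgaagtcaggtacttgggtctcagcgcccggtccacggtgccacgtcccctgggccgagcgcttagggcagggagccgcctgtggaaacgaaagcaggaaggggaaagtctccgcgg
Stat5a: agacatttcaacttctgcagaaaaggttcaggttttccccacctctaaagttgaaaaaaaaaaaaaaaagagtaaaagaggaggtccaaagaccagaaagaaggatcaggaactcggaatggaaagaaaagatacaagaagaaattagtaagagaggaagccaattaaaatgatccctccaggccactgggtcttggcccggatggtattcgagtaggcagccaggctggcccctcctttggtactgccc
Stat2: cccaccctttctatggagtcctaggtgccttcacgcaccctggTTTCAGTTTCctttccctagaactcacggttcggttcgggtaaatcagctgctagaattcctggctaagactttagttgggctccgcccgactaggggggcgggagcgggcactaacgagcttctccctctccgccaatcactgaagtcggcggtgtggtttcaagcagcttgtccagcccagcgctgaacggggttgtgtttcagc
Both strands were searched, also for the AP-1 site TGANTCA and a kappaB site, which are bound by factors that LPS activates. The motifs do not overlap one another in these windows. Among 21751 promoters of protein-coding genes, 7.7% held the GAS element, 3.32% the ISRE, 6.17% the AP-1 site and 4.23% the kappaB site. The GAS element of Jak2 lies 138 to 130 bases before the start, where the pattern TTCNNNGAA matches on both strands. The ISRE of Stat2 lies 207 to 198 bases before its start. An ISRE was also present before Stat4 and a kappaB site before Stat5b. None of the 4 motifs was found before Stat3, Stat5a, Stat6, Jak3 or Tyk2. A match is a description of the sequence and no evidence of binding.

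**Figure D1:**
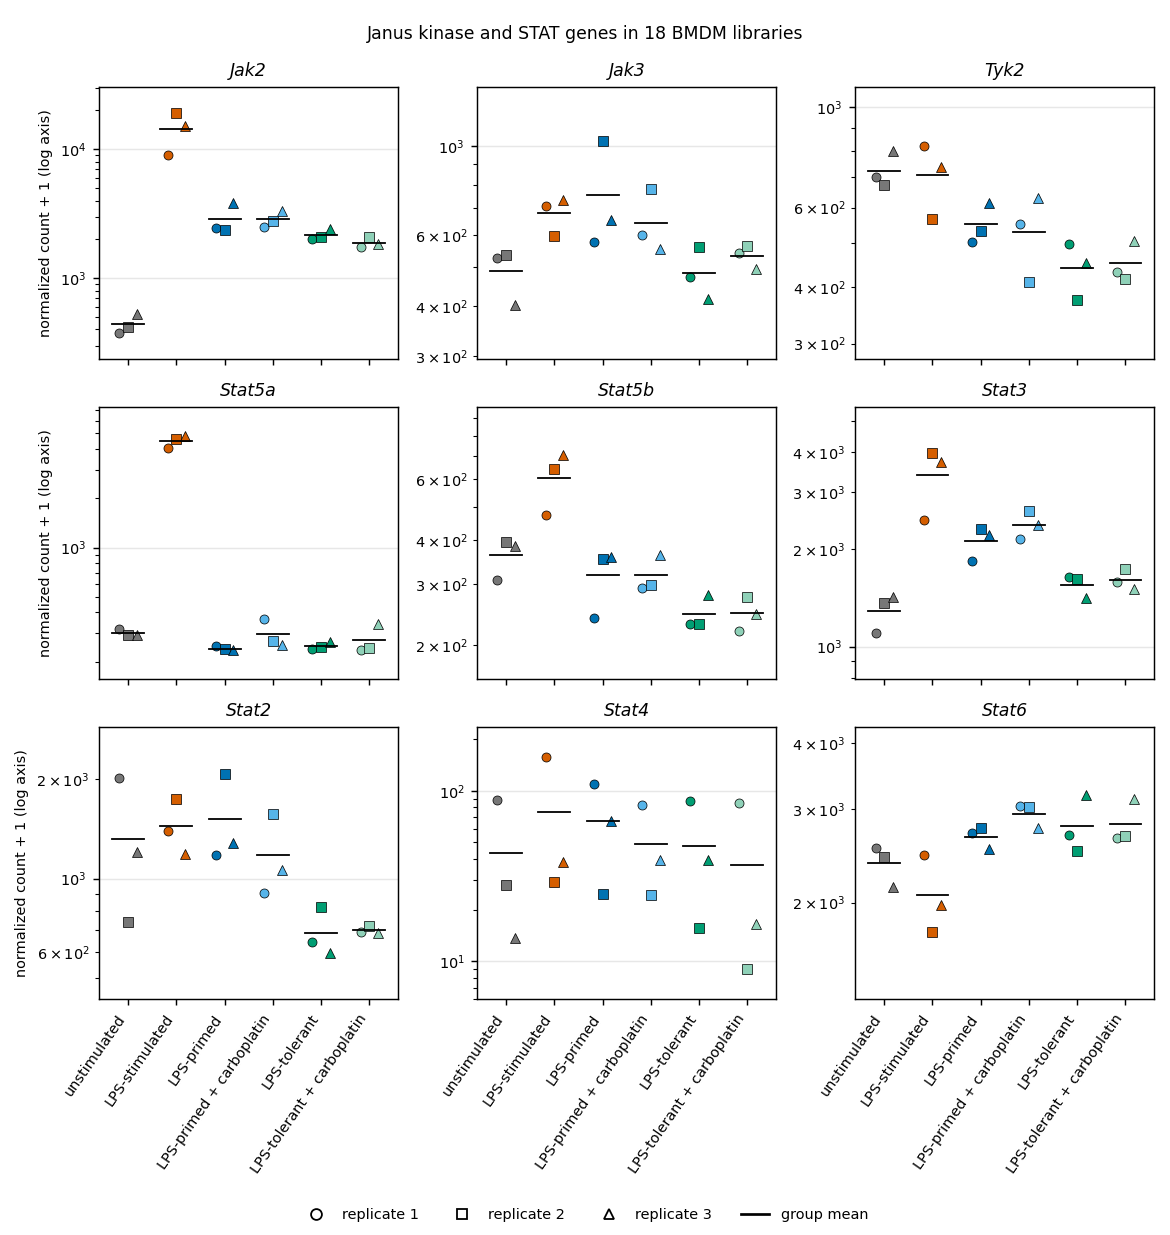
Normalized counts plus 1 (log axis) of the 9 genes in each of 18 libraries, by group, with a symbol for each replicate and a line at the group mean (n = 3). Stat5a was at 4095 to 4804 in LPS-stimulated BMDMs and at 362 or below in all other groups, whereas Jak2 stayed above 1750 in every group that had received LPS.

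Jak2, the kinase of the GM-CSF and interferon-γ receptors among others, had the largest change of the tested genes. Unstimulated BMDMs held 372, 419 and 529 normalized counts of Jak2 in replicates 1, 2 and 3, LPS-stimulated BMDMs 8989, 19257 and 15196, and LPS-primed BMDMs 2470.2, 2367 and 3852. All 3 groups were apart, with the LPS-stimulated libraries highest and the unstimulated ones lowest. Jak2 rose by 5.04 on the log2 scale after stimulation (SE 0.28, edgeR adjusted p = 4.7e-10), and by 2.72 after priming (SE 0.25, adjusted p = 4.9e-07). The LPS-stimulated libraries also entered the comparison by which Stat5a was chosen, and this holds for every test after stimulation below. In LPS-tolerant BMDMs Jak2 was at 2001, 2093 and 2399. These libraries lay above every unstimulated library and below every LPS-stimulated one, at a mean 4.92 times the unstimulated mean and 14.95% of the LPS-stimulated mean.

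Jak3, the kinase bound to the common γ chain, gave smaller differences. It was at 526, 535 and 401 in unstimulated, 708, 597 and 731 in LPS-stimulated and 577, 1028 and 654 in LPS-primed BMDMs. The unstimulated libraries were lowest, and replicate 2 stood above the other LPS-primed libraries. Jak3 rose with priming (log2FC 0.63, SE 0.20, adjusted p = 0.0311), but without LPS-primed replicate 2 the log2FC was 0.34 and the adjusted p 0.226, and without unstimulated replicate 3 the adjusted p was 0.116. The priming call was also lost when scaled by library size alone (edgeR adjusted p = 0.158) and with only the groups compared (0.0822). After stimulation the log2FC was 0.48 (SE 0.20) and the adjusted p 0.0599. With replicate number as a block this second difference passed the threshold (adjusted p = 0.0124). It also passed with RLE scaling (edgeR, 0.0434), with only the groups compared (edgeR, 0.0378) and with DESeq2 (0.0384).

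Tyk2, the kinase of the type I interferon and IL-12 family receptors, was at 670 to 799 in unstimulated, 566 to 820 in LPS-stimulated, 504 to 614 in LPS-primed and 374 to 496 in LPS-tolerant BMDMs. Its LPS-primed libraries were all below the unstimulated ones. The log2FC after priming was -0.39 (SE 0.18, adjusted p = 0.12), and the replicate block gave an adjusted p of 0.0185. After stimulation the log2FC was -0.03 (95% interval -0.41 to 0.34).

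Stat5a was at 314, 290.1 and 289 normalized counts in unstimulated BMDMs and at 4095, 4652 and 4804 in LPS-stimulated BMDMs. The LPS-tolerant libraries held 238, 244 and 264, and the LPS-primed libraries 247, 237 and 235. Only the LPS-stimulated libraries were high among the 18, and the LPS-tolerant libraries all lay below the unstimulated ones. The log2FC was 3.92 (SE 0.17) between LPS-stimulated and unstimulated BMDMs and -4.18 (SE 0.17) between LPS-tolerant and LPS-stimulated BMDMs, or 18.2-fold lower. Neither was tested, since the gene was chosen for its level in LPS-tolerant against LPS-stimulated BMDMs. The comparison of LPS-primed with unstimulated BMDMs shares no library with that choice, and it gave a log2FC of -0.31 (SE 0.16, adjusted p = 0.165), with the groups not overlapping. Scaled by library size alone it was -0.55, with an adjusted p of 0.0150.

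Stat5b, the close relative of Stat5a, was at 307, 396 and 385 in unstimulated and 471, 639 and 700.0 in LPS-stimulated BMDMs. LPS-primed libraries held 239, 352 and 358, and LPS-tolerant libraries 229, 229 and 278. The LPS-stimulated libraries were the highest and the LPS-tolerant ones all below the unstimulated ones. Stat5b rose after stimulation (log2FC 0.73, SE 0.19, adjusted p = 0.00389), but not past the threshold when scaled by library size alone (log2FC 0.39, adjusted p = 0.0951). The same step gave Stat5a a ratio of means of 15.2 and Stat5b one of 1.66.

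Stat3 was at 1098, 1360 and 1421 in unstimulated BMDMs, at 2457, 3975 and 3737 after stimulation and at 1846, 2307 and 2208 after priming. No unstimulated library reached the lowest of either LPS group, and replicate 1 was the lowest of each. Stat3 rose with stimulation (log2FC 1.39, SE 0.17, adjusted p = 3.9e-06) and with priming (log2FC 0.71, SE 0.17, adjusted p = 0.00427). The LPS-tolerant libraries held 1637, 1613 and 1410.4, with the last inside the unstimulated range.

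Stat2, the partner of IRF9 in the interferon response, was at 2027, 739 and 1200 in unstimulated, 1391, 1747 and 1187 in LPS-stimulated, 1176, 2081 and 1284 in LPS-primed and 639, 817 and 594 in LPS-tolerant BMDMs. The first 3 groups overlapped, and the LPS-tolerant libraries were low. The log2FC was 0.20 (SE 0.30, adjusted p = 0.694) after priming and 0.13 (SE 0.30, adjusted p = 0.749) after stimulation. In unstimulated replicate 1, which was highest for Stat2, all 13 measured target genes of STAT2 and IRF9 were the highest of their group, and they summed to 21708 normalized counts against 7013 and 9926 in the other 2 replicates. LPS-primed replicate 2, highest for Stat2 in its group, was highest for all 13 as well, at 23933 against 17703 and 14290.2. With carboplatin, LPS-primed replicate 2 was again highest for Stat2 and for the sum. In the other 3 groups the sum and Stat2 did not peak together. Among LPS-stimulated libraries replicate 1 held the highest sum, 22689, and the highest level of 9 of the 13 genes, while Stat2 was highest in replicate 2. In LPS-tolerant BMDMs with and without carboplatin the sum was also highest in replicate 1 and Stat2 in replicate 2. There the single genes were split. Without carboplatin 6 of the 13 were highest in replicate 1 and 6 in replicate 2, with carboplatin 7 and 5. Irf7 alone held 7367 of the sum of 14251 in LPS-tolerant replicate 1, and 5904 of 13431 in replicate 2. The part of this interferon-response signal in the level of Stat2 was not tested.

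**Figure D2:**
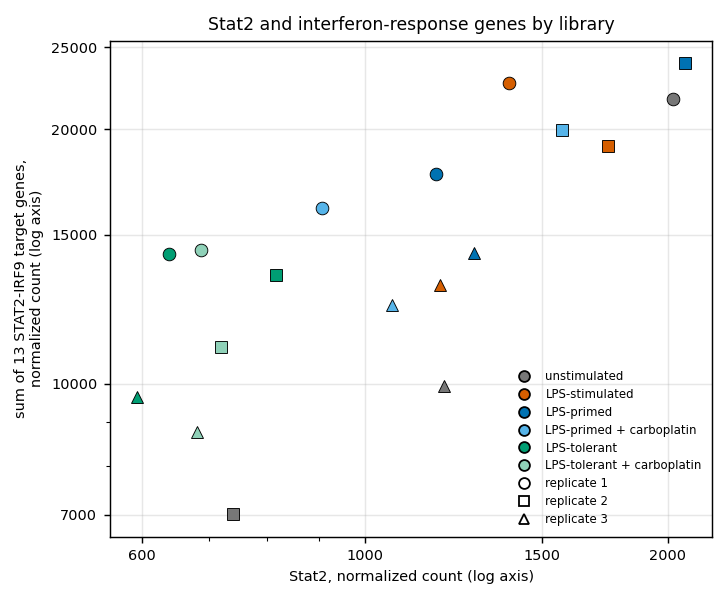
Stat2 (horizontal, normalized count, log axis) against the sum of 13 target genes of STAT2 and IRF9 (vertical, normalized count, log axis) in 18 libraries, coloured by group with a symbol for each replicate. Unstimulated replicate 1 and LPS-primed replicate 2 sit at the top right, at 2027 and 2081 of Stat2, whereas LPS-stimulated replicate 1 had a sum of 22689 at 1391 of Stat2.

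Stat4, known from T and NK cells, was scarce, with 7 to 131 read pairs per library. Replicate 1 was the highest of its group in 6 of 6 groups, at 2.41 to 7.12 times the mean of the other replicates. In LPS-stimulated BMDMs, for example, it was at 156, 28.4 and 37.5 normalized counts. The SE of its log2FC was 0.89 in both comparisons with unstimulated BMDMs, and neither passed the threshold. The T and NK cell markers were at 0 in all 18 libraries for 9 of 18 genes and summed to at most 10.98 CPM.

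Stat6, the factor of IL-4 signalling, was at 2140.5 to 2539 in unstimulated, 1760.1 to 2459 in LPS-stimulated, 2522 to 2762 in LPS-primed and 2498 to 3195 in LPS-tolerant BMDMs. The LPS-stimulated libraries were below all LPS-primed and LPS-tolerant ones, and the unstimulated range overlapped all others. The log2FC was 0.17 (95% interval -0.13 to 0.46) after priming and -0.20 (95% interval -0.50 to 0.09) after stimulation. Scaled by library size alone, Stat6 was lower after stimulation (log2FC -0.54, adjusted p = 0.00450).

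In all, 3 of 9 genes rose with priming (4 of 9 changed with the block), 3 of 8 tested genes rose with stimulation (4 of 8 with the block), and none fell without the block. The calls after stimulation share the LPS-stimulated libraries with the comparison behind the choice of genes, so they are not independent of that choice. The thresholds were those of the study's methods, an adjusted p under 0.05 for LPS and under 0.25 for carboplatin, with no limit on fold. Of all 11305 genes, 25.2% changed with priming (38.6% with the block), where 12.1% of all genes rose and 13.1% of all genes fell. With stimulation 51.2% changed (63.2% with the block), 24.3% upward and 26.9% downward. Of the tested genes only Jak2 also had a log2FC over 2, against 7.47% of all genes with priming and 12% with stimulation. Without replicate 1 of every group, an alternative added after the data were seen, both counts were again 3. Scaling by library size alone moved the median log2FC of all genes from -0.02 to -0.26 after priming, from -0.09 to -0.43 after stimulation and from -0.01 to -0.11 between LPS-tolerant and LPS-primed BMDMs, and values of the 9 genes under that scaling shift with it.

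The levels per kb of exon put the genes in order within a group. In unstimulated BMDMs Stat6 led with 355 normalized counts per kb, before Stat2 with 210 and Stat3 with 128, and the replicates of these neighbours overlapped. Tyk2, Jak2, Jak3 and Stat5b followed at 82.7 to 52.4, each overlapping the next, and Stat5a at 36.1 and Stat4 at 4.72 per kb stood clear below. In LPS-stimulated BMDMs the order opened with Jak2 at 2287 and Stat5a at 547 per kb, both clear of the gene after them. LPS-primed BMDMs had Jak2 at 457 and Stat6 at 398 per kb in overlapping ranges, and Stat5a at 29.0 was again next to last. In LPS-tolerant BMDMs Stat6 at 418 and Jak2 at 342 per kb overlapped, Stat3 was at 154, and Stat5a at 30.1 lay clear of Stat5b at 35.5 above it and of Stat4 at 5.17 below it.

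**Figure D3:**
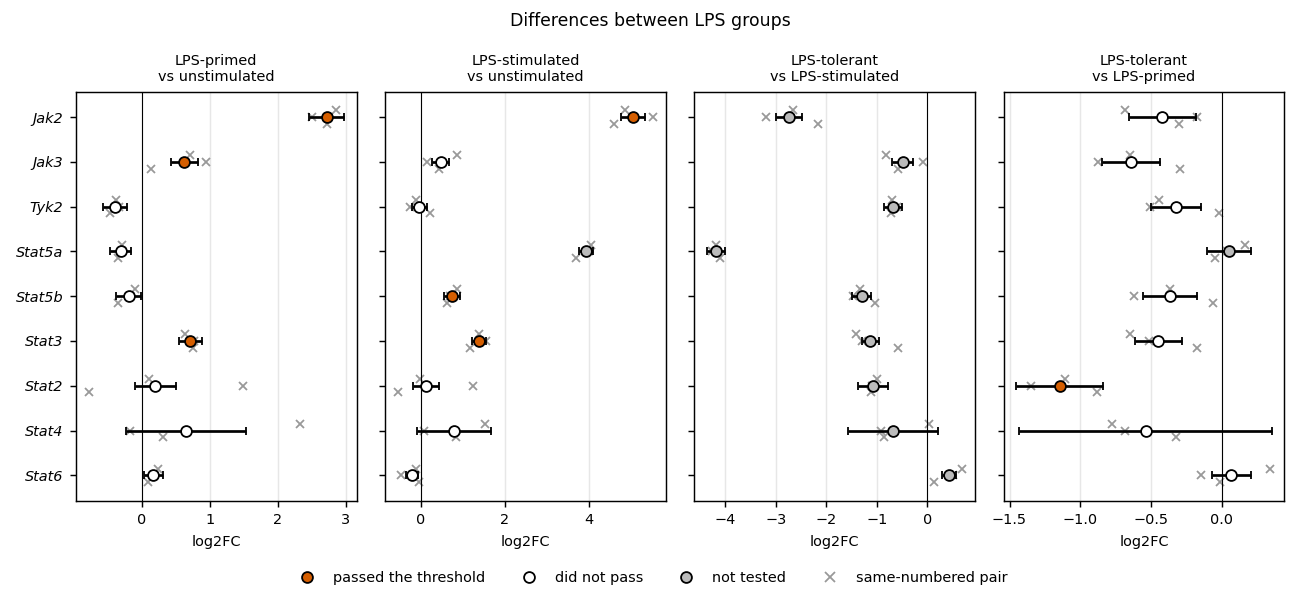
Log2FC with its SE (points and bars) of the 9 genes in the comparisons between LPS groups, with crosses for the 3 same-numbered pairs. Filled orange points passed an adjusted p under 0.05 and grey points were not tested. Jak2 and Stat5a had log2FC of -2.74 and -4.18 between LPS-tolerant and LPS-stimulated BMDMs, and only Stat2 passed the threshold between LPS-tolerant and LPS-primed BMDMs.

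The comparison of LPS-tolerant with LPS-stimulated BMDMs, which asks how cells with and without earlier LPS answer the same low dose, was the one behind the choice of genes and was not tested. The libraries of both groups did not overlap for 8 of 9 genes, against 44.2% of all genes, and nothing is read from that count. Lower in LPS-tolerant BMDMs were Stat5a, Jak2 (log2FC -2.74), Stat5b (-1.30), Stat3 (-1.13), Stat2 (-1.08), Tyk2 (-0.68) and Jak3 (-0.49). Stat6 was higher (0.44), and Stat4 had a log2FC of -0.68 with overlapping libraries.

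The second dose was also set against priming alone. Here 1 of 8 tested genes changed, against 6.31% of all genes (3.6% higher, 2.71% lower). Stat2 fell from LPS-primed to LPS-tolerant BMDMs with a log2FC of -1.15 (SE 0.31, adjusted p = 0.0333), while none of its 13 measured target genes passed (median log2FC -0.78). The call was lost without LPS-primed replicate 2 (adjusted p = 0.157), the library with the highest sum of these target genes, without LPS-primed replicate 3 (0.059) and without any one LPS-tolerant library (0.0512 to 0.127). With the replicate block 3 of 8 changed, against 18% of all genes: Stat2 (adjusted p = 0.00892), Stat3 (log2FC -0.44, adjusted p = 0.0244) and Jak3 (log2FC -0.63, adjusted p = 0.0125), all downward. For Jak2 the log2FC was -0.42 (SE 0.24, adjusted p = 0.334). Stat5a was not tested here and was at 0.05 (95% interval -0.28 to 0.39) on the same scale. These comparisons share the LPS-tolerant or LPS-stimulated libraries with the one behind the choice of genes.

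Carboplatin moved none of these genes past the threshold. In LPS-primed BMDMs 0 of 9 genes passed, against 1.2% of all genes, and none had an unadjusted p under 0.05 by edgeR. Stat5a was at 362, 266 and 253 with and at 247, 237 and 235 without carboplatin, so the libraries did not overlap, and the log2FC was 0.29 (95% interval -0.04 to 0.62, adjusted p = 0.806). Jak2 was at 2494, 2790.4 and 3303 with carboplatin, overlapping the libraries without it (log2FC -0.02, 95% interval -0.52 to 0.48). DESeq2 gave 0 of 9 as well, as did the replicate block, against 7.87% of all genes with the block.

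In LPS-tolerant BMDMs 0 of 8 tested genes passed, against 1.65% of all genes, and again none had an unadjusted p under 0.05. DESeq2 and the block also gave 0 of 8 (6.93% of all genes with the block). Stat5a was at 235, 242 and 338 with carboplatin, and replicate 3 alone lay above the LPS-tolerant range (log2FC 0.13, 95% interval -0.20 to 0.47, not tested). Jak2 was at 1757, 2079 and 1828 (log2FC -0.20, 95% interval -0.70 to 0.30). The effect of carboplatin did not differ between LPS-tolerant and LPS-primed BMDMs past the threshold for any of 8 genes, or for any of 11305 (0% called). At an unadjusted p under 0.05 edgeR gave 0 of the 8 and 131 of all genes, and DESeq2 called 0 of the 8.

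LPS-tolerant and LPS-primed BMDMs that both had carboplatin differed in 0 of 9 genes, against 1.98% of all genes, with 3 genes at an unadjusted p under 0.05. All 9 log2FC were negative, from -0.76 to -0.06, whereas the median of all genes was -0.01. Stat3 was at 1580, 1740.5 and 1510 with the second dose and at 2158, 2620.3 and 2373 without it, and the libraries did not overlap. Its log2FC was -0.57 (SE 0.17, adjusted p = 0.0976), and it passed with DESeq2 (0.0305) and with the block (0.0102). The block called Jak2 too (log2FC -0.59, adjusted p = 0.0433), so 2 of 9 genes, against 9.2% of all genes.

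**Figure D4:**
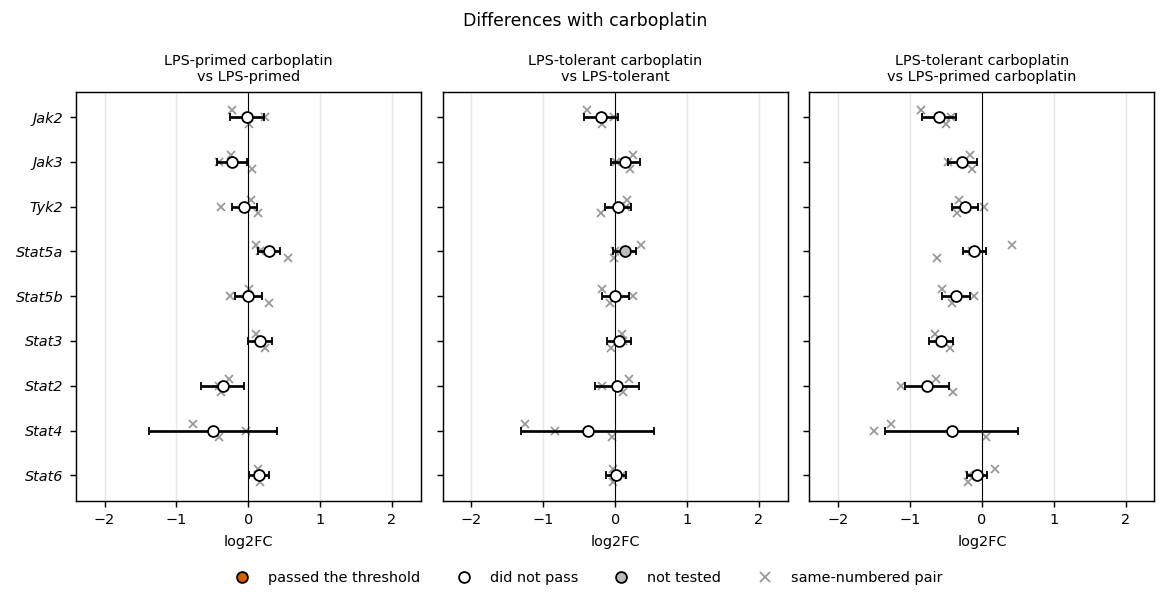
Log2FC with its SE (points and bars) of the 9 genes in the 3 comparisons with carboplatin, with crosses for same-numbered pairs. No point passed the threshold, and in the comparison of LPS-tolerant with LPS-primed BMDMs that both had carboplatin all 9 points lie below 0, from -0.76 to -0.06.

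The genes around the kinases and STATs were counted on lists of receptors, cytokines, inhibitors and target genes. Of 26 tested receptors that couple to Janus kinases, 12 rose and 3 fell with priming, and 11 rose and 3 fell with stimulation. With the block, 12 rose and 8 fell with priming, and 12 rose and 5 fell with stimulation. Those that changed were 57.7% of the list with priming and 53.8% with stimulation, against 25.2% and 51.2% of all genes (76.9% and 65.4% with the block, against 38.6% and 63.2%). The median log2FC of the list was 0.59 and 0.27, beside -0.02 and -0.09 for all genes. Il4ra, the IL-4 receptor chain, rose from 1153 ± 293 (mean ± SD, n = 3) to 17715 ± 5567 after stimulation (log2FC 3.94, SE 0.36) and to 8650 ± 3429 after priming, and fell to 2137 ± 749 in LPS-tolerant BMDMs (log2FC against priming -2.02, adjusted p = 0.0015). Il2rg, the common γ chain, rose with priming from 979 ± 314 to 3673 ± 318 (log2FC 1.91, SE 0.19), and Csf2rb, the signalling chain of the GM-CSF receptor, from 1777 ± 318 to 4852 ± 165 (log2FC 1.45, SE 0.18). Ifnar1, a chain of the type I interferon receptor, rose as well (log2FC 1.16, SE 0.27). Il6st, the signal chain of the IL-6 family, fell with priming from 798 ± 372 to 312 ± 86.7 (log2FC -1.35, SE 0.38). Csf2ra, Il10ra and Ifngr1 had log2FC of -0.06, -0.34 and 0.01 with priming, and none passed.

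Of 12 tested cytokine genes that signal through this pathway, 10 rose with stimulation and none fell, with a median log2FC of 6.40. These were 83.3% of the list, against 51.2% of all genes, and the block added Osm as the 11th. After priming for 24 h, 1 rose and 1 fell (3 and 1 with the block), or 16.7% against 25.2% of all genes. Il10 was at 30.6 ± 5.53 in unstimulated, 4525 ± 968 in LPS-stimulated, 9.67 ± 6.18 in LPS-primed and 33.2 ± 22.3 in LPS-tolerant BMDMs. Il27, whose product activates STAT factors in T cells, was at 10.2 ± 5.95, 399 ± 148, 9.66 ± 5.78 and 9.43 ± 4.48 in the same order. Il6 and Csf2, which encodes GM-CSF, had no read pair in unstimulated BMDMs. Set against a floor of 3 read pairs per library, Il6 was at least 292-fold and Csf2 at least 62.8-fold higher after stimulation, and replicate 1 held the highest level of both. Without LPS-stimulated replicate 1 these bounds were 169-fold for Il6 and 16.4-fold for Csf2. Osm, a cytokine of the IL-6 family, had log2FC of 0.76 and 1.10 with priming and stimulation, and neither passed, though the second did with the block (adjusted p = 0.00691). Ifnb1, below the filter on low counts, had at most 24 read pairs in a library.

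Of 18 inhibitors, 4 rose and 3 fell with priming (6 and 4 with the block), and 7 rose and 4 fell with stimulation (10 and 4). The changed inhibitors were 38.9% and 61.1% of the list, near the 25.2% and 51.2% of all genes (55.6% and 77.8% with the block, against 38.6% and 63.2%). Cish, which encodes CIS and is a classical target of STAT5, was at 3.82, 4.10 and 2.73 normalized counts in unstimulated BMDMs and at 1410.3, 744 and 669 in LPS-stimulated BMDMs. In LPS-primed BMDMs it was at 15.95 to 21.6, in LPS-tolerant ones at 1.73 to 13.9. As for Stat5a, the LPS-stimulated libraries stood above all others (log2FC against unstimulated 7.995, SE 0.68, adjusted p = 7.1e-08). Socs3, an inhibitor of JAK2 and of the IL-6 receptor chain, was at 34.9 ± 3.13, then 11936 ± 1514 after stimulation, 2377 ± 427 after priming and 1439 ± 1062 in LPS-tolerant BMDMs. Socs1 was at 12.0 ± 7.48, 559 ± 245, 125 ± 75.6 and 69.1 ± 67.1, and Ptpn2, a phosphatase of STATs, at 278 ± 48.1, 828 ± 126, 438 ± 20.9 and 515 ± 31.9 in this order. All 4 of these genes rose in both comparisons with unstimulated BMDMs.

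**Figure D5:**
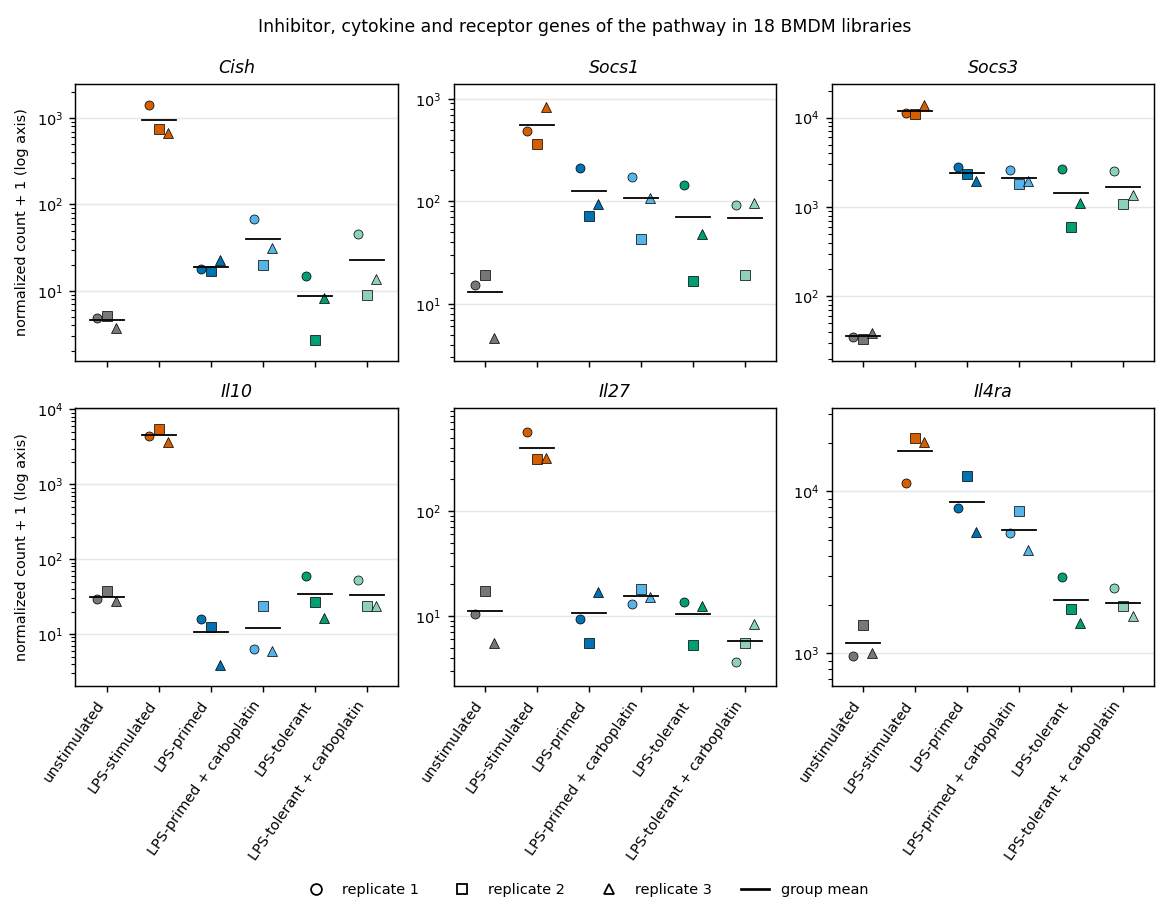
Normalized counts plus 1 (log axis) of Cish, Socs1, Socs3, Il10, Il27 and Il4ra in 18 libraries, by group, with a symbol for each replicate and a line at the group mean (n = 3). Il10 and Il27 were high in LPS-stimulated BMDMs alone, whereas Socs3 and Il4ra were above their unstimulated level in every LPS group.

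The target lists share genes (Pim1 and Socs1 stand on more than one) and many of their genes also answer other signals. Of 12 STAT3 targets, 11 rose and 1 fell with priming (median log2FC 1.74) and 11 rose and none fell with stimulation (median 3.95), or 100% and 91.7% of the list against 25.2% and 51.2% of all genes. Socs3 (log2FC 6.09, SE 0.50) and Il1rn, the IL-1 receptor antagonist (log2FC 4.47, SE 0.57), rose most with priming, and Il10 fell (log2FC -1.69, SE 0.59, adjusted p = 0.0444). Of 12 STAT5 targets, 3 rose and 1 fell with priming, and 7 rose with stimulation (8 with the block, Osm added), with medians of 0.65 and 2.46. These were 33.3% and 58.3% of the list, against 25.2% and 51.2% of all genes that changed in either direction. None of the list fell with stimulation, and 24.3% of all genes rose. Ccnd1, which encodes cyclin D1, was the one that fell with priming (log2FC -2.87, SE 0.59).

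Of 8 tested STAT6 targets, 2 rose and 2 fell with priming (4 fell with the block), and 4 rose and 2 fell with stimulation. The changed ones were 50% and 75% of the list, against 25.2% and 51.2% of all genes, and the medians were -1.48 and 2.25. Arg1, which encodes arginase 1, rose with priming by a log2FC of 9.29 (SE 0.98), while Egr2 (log2FC -2.83, SE 0.49) and Clec10a (log2FC -2.64, SE 0.43) fell. Ccl22, a chemokine, held 72 to 163 read pairs per LPS-stimulated library and 0 or 1 per unstimulated library, and Klf4 fell with stimulation (log2FC -1.99, SE 0.32). Of 13 targets of STAT2 and IRF9, 1 rose with priming, Irf7 (log2FC 1.85, SE 0.53, adjusted p = 0.0164), and 4 rose with stimulation, among them Cxcl10 (log2FC 5.48, SE 0.50) and Rsad2 (log2FC 2.07, SE 0.53). The changed ones were 7.69% and 30.8% of this list, against 25.2% and 51.2% of all genes that changed in either direction. None of the list fell, and of all genes 12.1% rose with priming and 24.3% with stimulation. Without replicate 1 of every group, 4 rather than 1 rose with priming, and with the block 2 rose and 2 fell.

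Between LPS-tolerant and LPS-primed BMDMs, 5 STAT3 targets fell and none rose (2 rose and 6 fell with the block), while 2 STAT5 targets rose and 1 fell. The latter, named after their values were seen, were Id1 (log2FC 4.55, SE 0.51), Ccnd1 (log2FC 3.36, SE 0.60) and Pim1 (log2FC -1.79, SE 0.20). With the block, 4 STAT5 targets rose. No gene of the STAT6 list or of the STAT2 and IRF9 list passed, whereas with the block 2 STAT6 targets rose and 1 fell, and 4 targets of STAT2 and IRF9 fell. In the same comparison 1 receptor rose and 4 fell (3 and 7 with the block), 1 inhibitor fell (1 rose and 4 fell with the block), and 1 cytokine gene fell, which was Il15 (log2FC -2.05, SE 0.28), and its receptor chain Il15ra fell as well (log2FC -2.13, SE 0.34). With the block 2 cytokine genes also rose, Csf3, which encodes G-CSF (log2FC 3.57, edgeR adjusted p = 0.00447 with the block), and Il10 (log2FC 1.76, adjusted p = 0.0211 with the block). The changed genes were 41.7% of the STAT3 list, 25% of the STAT5 list, 19.2% of the receptors, 8.33% of the cytokine genes and 5.56% of the inhibitors, against 6.31% of all genes. With the block the shares of the 7 lists lay between 25% (cytokine genes) and 66.7% (STAT3 targets), against 18% of all genes. Csf3 was named after its value was seen.

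With carboplatin, no gene of these 7 lists passed in LPS-primed or in LPS-tolerant BMDMs in the edgeR fit without the block. DESeq2 called 1 STAT5 target higher in LPS-primed BMDMs. In LPS-tolerant BMDMs 1 receptor was called lower with DESeq2, with RLE scaling and without replicate 1 of every group. With the replicate block, an adjusted p under 0.25 was reached in LPS-primed BMDMs by 5 receptors, all lower, 2 cytokine genes and 2 STAT5 targets, all higher, and 2 STAT6 targets, both lower, against 7.87% of all genes. The 2 STAT5 targets were Cdkn1a, the cell cycle inhibitor p21 (log2FC 0.86, adjusted p = 0.0394 with the block), and Id1 (log2FC 1.60, adjusted p = 0.138 with the block). In LPS-tolerant BMDMs the block called 3 STAT5 targets, all higher: Cdkn1a (log2FC 0.72), Cish (log2FC 1.55) and Pim1 (log2FC 0.50), against 6.93% of all genes. Cish also stands on the list of inhibitors and Pim1 on that of STAT3 targets. Lower there with the block were 1 receptor, Il23r (log2FC -0.96, edgeR adjusted p = 0.0507 with the block and 0.280 without it), and 1 STAT6 target. These genes were named after their values were seen. Between LPS-tolerant and LPS-primed BMDMs that both had carboplatin, 2 receptors, 1 cytokine gene and 4 STAT3 targets fell, and 2 STAT5 targets rose and 1 fell. These were 7.69% of the receptors, 8.33% of the cytokine genes, 33.3% of the STAT3 list and 25% of the STAT5 list, against 1.98% of all genes (1.29% higher, 0.69% lower). Without the block no inhibitor, STAT6 target or target of STAT2 and IRF9 passed there. With the block 2 inhibitors fell, Ptpn1 (log2FC -0.58, edgeR adjusted p = 0.0403 with the block) and Usp18 (log2FC -1.25, adjusted p = 0.0184 with the block). Usp18 and Oas2 were the 2 targets of STAT2 and IRF9 that fell with the block, and Klf4 was the 1 STAT6 target that rose, all named after their values were seen. The block also gave 3 receptors that rose and 4 that fell, 1 cytokine gene that rose beside the 1 that fell, and 5 STAT3 targets that fell, while the STAT5 counts stayed at 2 and 1. With the block the shares of the lists lay between 11.1% (inhibitors) and 41.7% (STAT3 targets), against 9.2% of all genes.

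The genes whose log2 CPM over the 18 libraries was most like that of Stat5a were Il34, Shisa3, Tmem200b, Mycl and Snai1 (Pearson r 0.991 to 0.986). The LPS-stimulated group alone sets this pattern: Shisa3 was at a mean of 375 and Il34 of 21.2 normalized counts there, and none of the 5 genes reached a mean of 1 in any other group. Most like Jak2 were Slc39a14, Foxp4, Tiparp, Ube2f and Pstpip2 (r 0.978 to 0.964). Slc39a14, a metal ion transporter, was at 51.0 in unstimulated, 2876 in LPS-stimulated, 413 in LPS-primed and 311 in LPS-tolerant BMDMs, so that, like Jak2, it was in between after priming. Among the 9 genes themselves, Jak2 was most like Stat3 (r 0.897) and Stat5a most like Stat5b (r 0.822). All these values share the same 18 libraries.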

How the data were processed

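RNA of 18 BMDM cultures was sequenced in pairs of 150 bases after stranded mRNA library preparation. The authors used HISAT2 for alignment, with GRCm39 as the genome, and HTSeq to count read pairs per gene. The labels also name DESeq2, and versions, annotation and strand setting are not given in the sources used here. The deposited values are raw counts. Between 41.5% and 46.9% of each library's pairs stood in rows that name no gene and were left out.

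Genes with enough counts (filterByExpr, minimum count 10, minimum total 15) were tested with edgeR 4.0.16 in R 4.3.3, by its quasi-likelihood test on group means of all 18 libraries with TMM scaling and Benjamini-Hochberg adjustment over 11305 genes. Normalized counts are counts scaled by effective library size. Limits of 95% intervals came from the t quantile with edgeR's degrees of freedom. The test was checked on simulated data. Counting floors cover counting error only, since read pairs carried no molecular identifiers.

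Same-numbered libraries of different groups deviated together from their group means (correlation over 0.1 in 44 of 45 pairings, median 0.35, lowest 0.063, between groups that were not compared). The replicate numbers of the labels were therefore taken to pair the samples in a second fit, with the number as a block. The main test used group means alone, so its p-values and counts ignore this pairing. The second fit is given where it changes a call of the 9 genes or moves a count of a list. Promoter windows of 250 bases were read from GRCm39 at canonical GENCODE vM39 starts.

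Members and gene lists were chosen with earlier results of these data known. The named pathway genes were set by name. The named target genes were up to 2 per list and direction with the largest change, and alike genes were the 5 with the highest r. Other scalings (RLE, library size alone), no filter, DESeq2 1.42.0, the groups compared alone and each library left out were tried. No columns of the authors' own comparisons were used.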

Additional observations from a re-analysis of the deposited data

Results flagged for a closer look

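For 5 of 9 genes the log2FC after the low dose of LPS had opposite signs in naive and in LPS-primed BMDMs, in every same-numbered pair, a pattern that 8.88% of all 11305 genes showed. The pattern uses the LPS-stimulated and LPS-tolerant libraries, whose comparison was the one behind the choice of genes. Stat5a, chosen by that comparison, is counted among the 9. The count is therefore a description, and nothing is read from it against the share of all genes. The log2FC against the respective starting group was 1.39 and -0.45 for Stat3, 0.79 and -0.54 for Stat4, 0.73 and -0.37 for Stat5b, 5.04 and -0.42 for Jak2, and 0.48 and -0.64 for Jak3. The difference between both responses was not tested. After stimulation neither Stat4 (SE 0.89, adjusted p = 0.478) nor Jak3 (adjusted p = 0.0599) passed in the edgeR fit without the block. That fit used all 18 libraries with TMM scaling, and Jak3 passed under other settings given above. The log2FC of Stat4 turned to -0.36 without LPS-stimulated replicate 1 and, in LPS-primed BMDMs, to 0.0067 without LPS-primed replicate 1. In the fit of all 18 libraries the second value of none of the 5 passed an adjusted p under 0.05.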

How the results depend on the processing

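The direction of Jak2, Stat3 and Stat5b after stimulation and of Jak2, Stat3 and Jak3 after priming held under every alternative run. Between LPS-tolerant and LPS-stimulated BMDMs 8 of 9 genes had a negative log2FC under each. That comparison was the one behind the choice of genes and was not tested, so nothing is read from this count. Between LPS-tolerant and LPS-primed BMDMs the 1 gene called became 2 with library size alone, 2 with DESeq2, 3 with the replicate block, 0 to 2 without a single library, and 2 without replicate 1 of every group, an alternative chosen after seeing the data. With carboplatin in both, 0 became 1 with DESeq2, 2 with the replicate block and 1 without replicate 1 of every group. Beside the calls given above, the replicate block changed no other call of the 9 genes.

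Library size alone reversed the log2FC of Stat2 (-0.037) and Stat6 (-0.070) after priming, of Stat2 after stimulation (-0.21), of Stat6 between LPS-tolerant and LPS-primed BMDMs (-0.030), and of Jak2 with carboplatin in LPS-primed BMDMs (0.0023). With only the groups compared, Tyk2 after stimulation was at 0.028. Leaving out 1 library gave -0.10 to 0.65 for Stat2 after priming. After stimulation it gave -0.14 to 0.59 for Stat2, -0.36 to 1.87 for Stat4 and -0.15 to 0.11 for Tyk2. Between LPS-tolerant and LPS-primed BMDMs the range was -1.34 to 0.0067 for Stat4 and -0.039 to 0.14 for Stat6, and with carboplatin in LPS-primed BMDMs it was -0.14 to 0.24 for Jak2. None of these values passed a threshold, and the cause was not tested. Of the single genes' values under all alternatives, 496 kept direction and call, 18 gained a call, 10 lost it, 18 changed sign and 4 values with no test moved.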
